A study of Mus musculus with 6 samples.

Results

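The 68 genes described here encode parts of the kinetochore, the spindle assembly checkpoint, cohesin, condensin and the related SMC5/6 complex. They were chosen by name among protein-coding genes of the deposited tables (names beginning with Cenp, Mis18, Ncap or Smc1 to Smc6, and further symbols such as Bub1, Ndc80, Rad21 and Nipbl), and they are 68 of 55802 listed genes. The rule uses names and biotype. The data were RNA-seq expression values of primary neural stem cells from the subventricular zone of adult C57BL/6 mice, the zone along the lateral ventricles in which neurons are born in adult life. In the SETD4 OE group (n = 3), labelled with the genotype SETD4 overexpression, cells received the adenovirus ADV-SETD4-GFP, and in the control group (n = 3), labelled WT, they received ADV-GFP. Both groups thus carried an adenovirus and green fluorescent protein, and the infection lasted 24 h. The labels do not give the animals behind each library, their sex or exact age, or whether fluorescent cells were sorted, so the p-values measure the spread between these libraries. SETD4 belongs to the SET domain family of lysine methyltransferases, and the comparison asks how raising it alters expression in these cultures.

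The kinetochore is the protein assembly that forms on centromeric chromatin and holds each chromosome to the spindle microtubules. The spindle checkpoint is a set of kinases and adaptors that gather at unattached kinetochores and delay chromosome separation. Cohesin is a ring that holds sister chromatids together and also folds chromatin into loops in cells that do not divide, whereas condensin compacts chromosomes for mitosis. Many kinetochore, checkpoint and condensin genes are transcribed mainly in dividing cells, and cohesin is needed by cycling and resting cells alike. In the adult subventricular zone most stem cells are quiescent and a minority cycles.

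Setd4 checked the labels, with 296, 346 and 333 FPKM in the SETD4 OE libraries and 0.952, 0.972 and 1.53 FPKM in the controls (log2 fold change 7.25, SE 0.11), where reads of the virus and of the mouse gene are not separated. The libraries held 14924273 to 16045138 recovered reads in SETD4 OE and 16007182 to 18078717 in the controls. Mitochondrially encoded genes took 3.52% to 3.73% of the reads in SETD4 OE and 3.78%, 2.45% and 2.45% in controls 1, 2 and 3, so control 1 stood apart from its group. Of all tested genes 3384 rose and 4406 fell, but 4405 rose and 3259 fell with upper-quartile scaling, and 4261 rose and 3351 fell with equal sums of FPKM. Those scalings moved the median of all genes by 0.12 and 0.11 on the log2 scale. All 8 neural stem cell and astroglial markers, such as Nes, Sox2 and Gfap, were expressed (3 fell and 5 rose), summing to 3330 to 3500 FPKM in SETD4 OE and 2720 to 2940 FPKM in the controls. Without Gfap, which averaged 1390 FPKM in SETD4 OE and 321 FPKM in the controls, the other 7 summed to 1990 to 2070 FPKM in SETD4 OE and 2410 to 2610 FPKM in the controls, and Nes was at 36.7% of the control mean. The 5 microglial markers summed to 0.934 to 1.65 FPKM in SETD4 OE and 0.758 to 1.01 FPKM in the controls, and the 4 endothelial markers to 0.506 to 0.758 FPKM in SETD4 OE and 0.494 to 0.641 FPKM in the controls, with Cldn5 at 0 in all 6 libraries. The 4 mature neuron markers summed to 2.76 to 3.12 FPKM in SETD4 OE and 2.09 to 2.55 FPKM in the controls. Higher in SETD4 OE were the sums of 4 oligodendrocyte markers (19.1 to 20.6 FPKM, against 7.46 to 8.64 FPKM in the controls), of 3 precursor markers (15.4 to 16.4 FPKM, against 6.16 to 7.09 FPKM in the controls), of 3 ependymal markers (32.1 to 42.8 FPKM, against 14.8 to 18.8 FPKM in the controls) and of 4 pericyte and fibroblast markers (6.81 to 7.69 FPKM, against 2.30 to 2.35 FPKM in the controls). Their part in the results on the members was not tested.

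Most genes of chromosome segregation were lower in SETD4 OE. The 42 tested centromere, kinetochore and checkpoint genes had a median of 33.8% of the control mean, the 8 condensin genes 40.6%, and the 12 tested cohesin genes and regulators 87.0%. Of the 66 members that reached a mean of 1 FPKM over the 6 libraries, 55 fell, 1 rose and 10 were not called (limma on log2(FPKM + 1), Benjamini-Hochberg adjusted p under 0.05 over all 12994 tested genes). FPKM are reads per kilobase of gene length scaled to library size. Over all tested genes 33.9% fell and 26.0% rose, so that 60.0% were called in either direction. The median log2 fold change of the tested members was -0.94, against -0.06 over all tested genes. A fall of more than 1 on the log2 scale was met by 29 members, where 4.78% of all tested genes met it, and 9 of the 29 had passed the expression filter through the control group. The 3 SETD4 OE values lay below all 3 control values for 56 tested members, beside 36.9% of all tested genes, and above them for 1, beside 29.1%. In 13 of the 66, among them Cenpi, Ndc80, Sgo1 and Esco2, the mean was under 1 FPKM in SETD4 OE, so they passed the filter through the control group. With limma-voom on the recovered reads 57 members fell and 1 rose, where 61.8% of all tested genes were called, 35.0% of the tested genes lower and 26.8% higher. Without control 1, 54 members fell and 2 rose, beside 4524 and 3316 of all 12994 tested genes. Among the 53 members which reached 1 FPKM in both groups, 42 fell and 1 rose, with a median of -0.65, and 20 fell by more than 1 on the log2 scale. Of all 12117 genes that reached 1 FPKM in both groups, 34.5% fell, 24.5% rose and 4.32% fell by more than 1. In the same selection the median share of control was 36.0% for 30 centromere, kinetochore and checkpoint genes, 40.6% for condensin and 88.5% for 11 cohesin genes and regulators. The members outside the filter were Cenpo and Smc1b. The 2 proliferation markers Mki67 and Pcna summed to 36.6 to 36.9 FPKM in SETD4 OE and 97.7 to 104 FPKM in the controls. In bulk RNA, fewer cycling cells and less of each transcript per cell cannot be told apart.

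**Figure D1:**
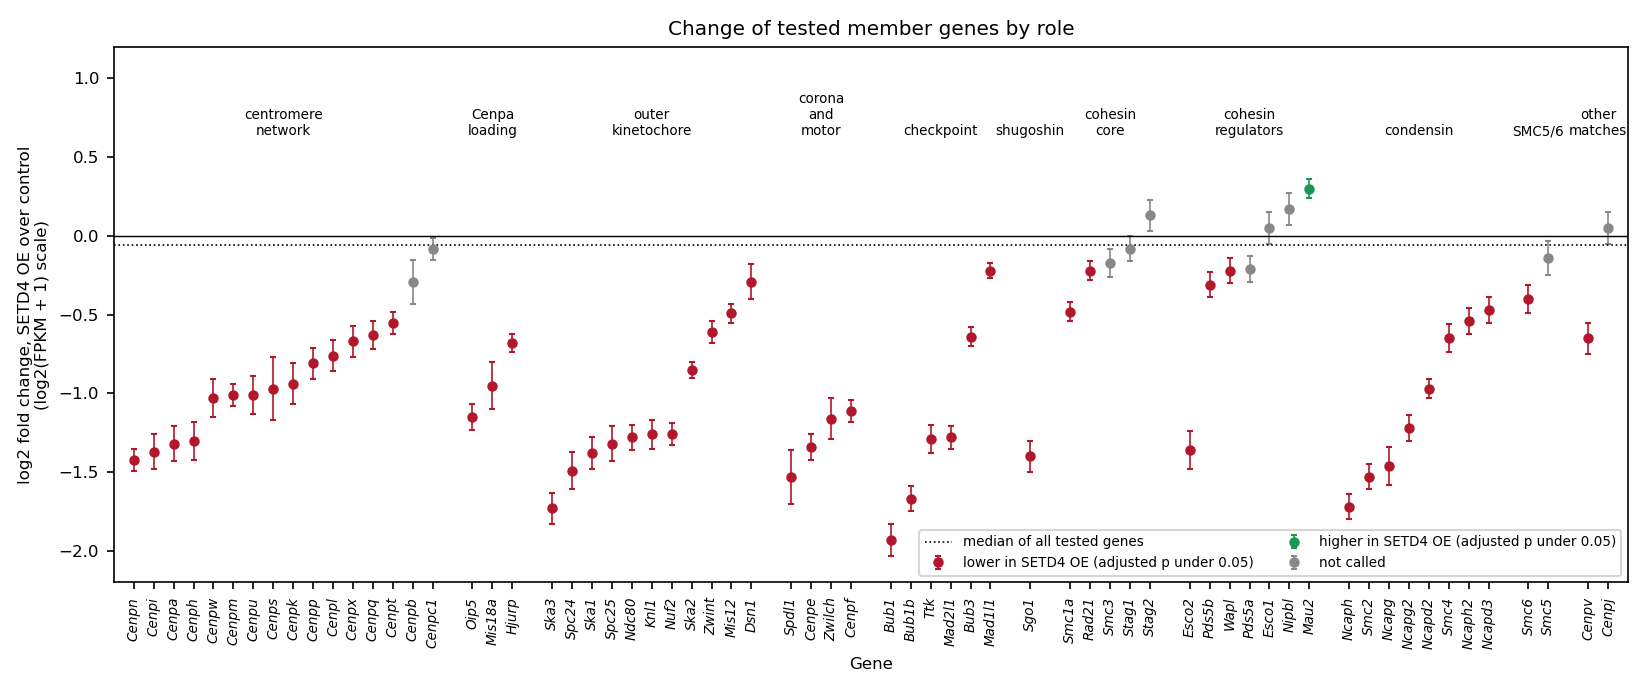
Log2 fold change of SETD4 OE over control on the log2(FPKM + 1) scale for the tested members whose values are reported here, grouped by role, with the standard error as bars and n = 3 libraries per group. Every centromere, kinetochore, checkpoint and condensin gene shown lies below 0, from -1.93 for Bub1 to -0.08 for Cenpc1 (which is at 0.04 with upper-quartile scaling), while the cohesin genes and regulators except Esco2 lie between -0.48 and 0.30.

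**Figure D2:**
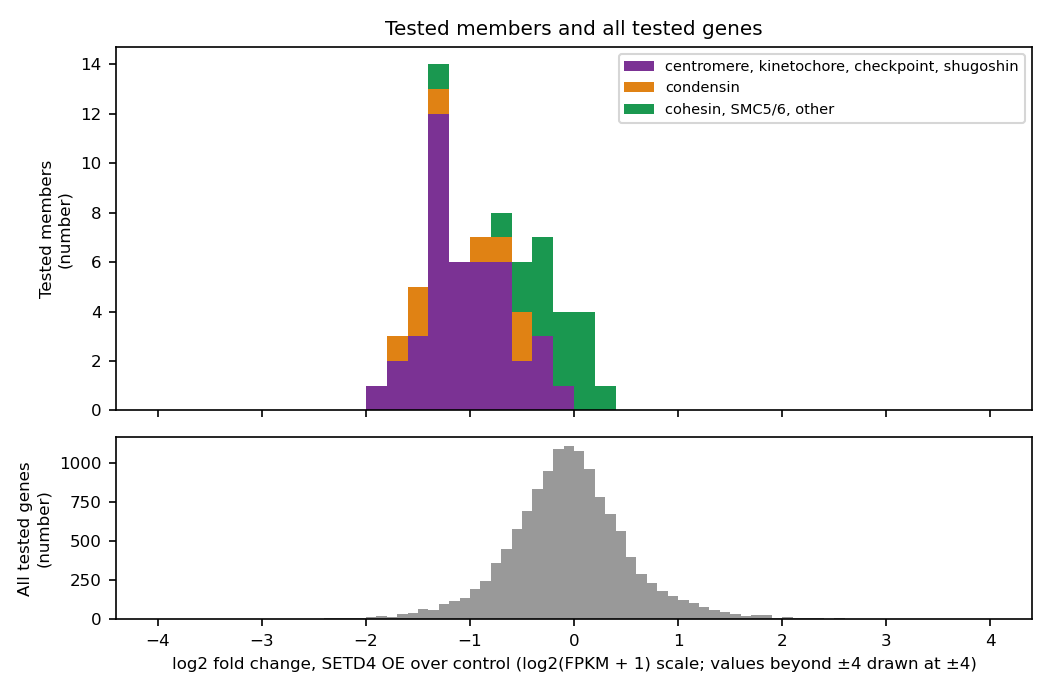
Number of tested members (top, stacked by role, bins of 0.2) and of all 12994 tested genes (bottom, bins of 0.1) by log2 fold change of SETD4 OE over control. The members centre on -0.94 and all tested genes on -0.06.

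The proliferation marker Mki67 gives a scale for the falls. It stood at 8.51, 8.58 and 7.47 FPKM in SETD4 OE and at 29.4, 25.5 and 25.4 FPKM in the controls, so the SETD4 OE mean was 30.5% of the control mean. Of the tested members, 22 had a mean in SETD4 OE at or under that share of control, among them Bub1, Sgo1, Ndc80, Esco2 and Ncaph. A further 14 were under 50%, another 14 lay between 50% and 75%, and 16 kept 75% or more. The last class held 10 of the 12 tested cohesin and cohesin regulator genes, together with Cenpb, Cenpc1, Dsn1, Mad1l1, Smc5 and Cenpj. Among those 22, Cenpi, Cenpk, Cenpu, Cenpw, Knl1, Ndc80, Ska1, Spdl1, Sgo1 and Esco2 passed the filter through the control group. That selection, which took in 13 members in all, favours low shares. For the 53 members at 1 FPKM or more in both groups the median share was 61.4%. Over all tested genes it was 95.4%, and the size classes were counted neither for all tested genes nor for the 53 members alone.

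Promoters were searched for short motifs that are known from cell cycle genes. RefSeq windows from 250 bases before to 50 after a start site were found for 58 of the 68 members by symbol (65 windows, build GRCm38.p6), and not for 10 members, among them Esco1, Esco2, Nipbl, Rad21, Ska1, Smc4, Spc24, Stag2 and Zwilch. The cell cycle genes homology region (CHR), which is bound by the DREAM and B-MYB complexes, was searched as TTTGAA and as its variant TTCGAA on both strands, the second being its own reverse complement. It was present in 18 of 25 windows (72.0%) of members that fell by more than 1 on the log2 scale and in 11 of 38 windows (28.9%) of the other tested members. Over the windows of all tested genes found in the table the share was 13.2%, and over all its windows 19.2%. CCAAT boxes (CCAAT, both strands) stood in 18 of the 25 windows (72.0%) and 19 of the 38, against 38.1% for all tested genes and 37.4% for all windows. E2F-type motifs (TTCCCGC or TTGGCGC, both strands) stood in 7 of the 25 (28.0%) and 13 of the 38 (34.2%), against 12.3% and 6.81%. These motifs were chosen after the expression values were known, letters in a window are no evidence of binding, and no test was made.

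5 windows are shown, those of members that fell in the checkpoint, the centromere, the Ndc80 complex and condensin, and that of Stag1, which was not called and has no CHR match. They read 5′ to 3′ on the strand of the gene, with the CHR match in capitals. These examples do not represent all members, and the counts above cover all windows found for tested members. Ncaph, Cenpe, Cenph, Cenpi and Cenpu fell and have no CHR match in their windows. Bub3, Pds5b and Smc6, which fell less, have a match. Mau2, which rose, has TTCGAA at position -81.
Bub1, GRCm38.p6 chr2:127831810-127832109, minus strand: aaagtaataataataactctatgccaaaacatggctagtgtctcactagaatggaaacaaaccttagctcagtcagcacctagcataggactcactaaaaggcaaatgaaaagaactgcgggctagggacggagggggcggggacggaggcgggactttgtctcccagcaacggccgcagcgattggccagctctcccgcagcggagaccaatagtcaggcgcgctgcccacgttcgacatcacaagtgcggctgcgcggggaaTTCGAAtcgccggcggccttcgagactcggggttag
Cenpa, GRCm38.p6 chr5:30666636-30666935, plus strand: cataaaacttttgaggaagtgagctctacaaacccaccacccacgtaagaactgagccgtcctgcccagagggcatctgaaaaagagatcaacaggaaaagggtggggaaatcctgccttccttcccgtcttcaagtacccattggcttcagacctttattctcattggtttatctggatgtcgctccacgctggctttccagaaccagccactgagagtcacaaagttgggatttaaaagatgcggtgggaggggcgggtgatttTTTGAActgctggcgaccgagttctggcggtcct
Spc25, GRCm38.p6 chr2:69206164-69206463, minus strand: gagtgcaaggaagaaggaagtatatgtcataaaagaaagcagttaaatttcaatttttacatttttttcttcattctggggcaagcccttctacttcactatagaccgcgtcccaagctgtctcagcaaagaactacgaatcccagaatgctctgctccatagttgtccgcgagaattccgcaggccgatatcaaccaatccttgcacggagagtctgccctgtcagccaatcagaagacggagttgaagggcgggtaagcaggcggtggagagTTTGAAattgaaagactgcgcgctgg
Ncapg, GRCm38.p6 chr5:45669675-45669974, plus strand: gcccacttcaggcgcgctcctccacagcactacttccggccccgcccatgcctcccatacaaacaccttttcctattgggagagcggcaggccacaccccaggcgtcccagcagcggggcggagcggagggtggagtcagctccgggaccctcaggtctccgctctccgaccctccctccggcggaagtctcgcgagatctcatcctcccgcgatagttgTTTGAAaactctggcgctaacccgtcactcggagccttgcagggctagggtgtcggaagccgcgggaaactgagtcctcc
Stag1, GRCm38.p6 chr9:100643198-100643497, plus strand: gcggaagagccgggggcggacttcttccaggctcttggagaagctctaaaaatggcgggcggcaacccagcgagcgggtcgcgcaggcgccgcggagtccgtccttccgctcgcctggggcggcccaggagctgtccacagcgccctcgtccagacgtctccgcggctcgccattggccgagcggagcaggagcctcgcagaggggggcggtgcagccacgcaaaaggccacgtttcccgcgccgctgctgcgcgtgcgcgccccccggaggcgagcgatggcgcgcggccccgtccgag
The match begins 14 bases after the start site in Bub1, 16 after it in Cenpa, 24 after it in Spc25, and at position -30 in Ncapg.

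In the spindle checkpoint all 6 genes fell (median log2 fold change -1.28), but by very different amounts. Bub1, the kinase that recruits other checkpoint proteins to the kinetochore (mm39 chromosome 2, 127643036 to 127673785, minus strand), had 1.28, 1.48 and 1.25 FPKM in SETD4 OE, against 8.89, 6.90 and 8.05 FPKM in the controls. This was 16.8% of the control mean, the lowest share among the 66 tested members, with a log2 fold change of -1.93 (SE 0.10, adjusted p = 7.829e-06). Bub1b, the BubR1 component of the complex that inhibits chromosome separation, had 3.38, 4.03 and 3.31 FPKM in SETD4 OE and 12.6, 13.7 and 14.2 FPKM in the controls. The groups did not overlap for either gene. Ttk, the kinase that starts checkpoint signalling, fell to 1.07 ± 0.0656 FPKM in SETD4 OE, against 4.05 ± 0.389 FPKM in the controls (SD, n = 3 each). Mad2l1, the protein that is converted into the inhibitor at unattached kinetochores, fell to 1.44 ± 0.0880 FPKM in SETD4 OE, against 4.93 ± 0.261 FPKM in the controls. Bub3, the partner of Bub1 and Bub1b, retained 62.4% of the control mean. Mad1l1, the platform on which Mad2l1 is converted, changed least, with 6.87, 6.82 and 6.71 FPKM in SETD4 OE and 8.23, 8.10 and 8.01 FPKM in the controls (log2 fold change -0.22, SE 0.05, adjusted p = 0.00641). The Mad1l1 call was lost with upper-quartile scaling (adjusted p = 0.214), equal sums of FPKM (0.154) and without mitochondrial and the 10 most abundant genes (0.0579), where its range over all alternatives was 0.00614 to 0.214.

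**Figure D3:**
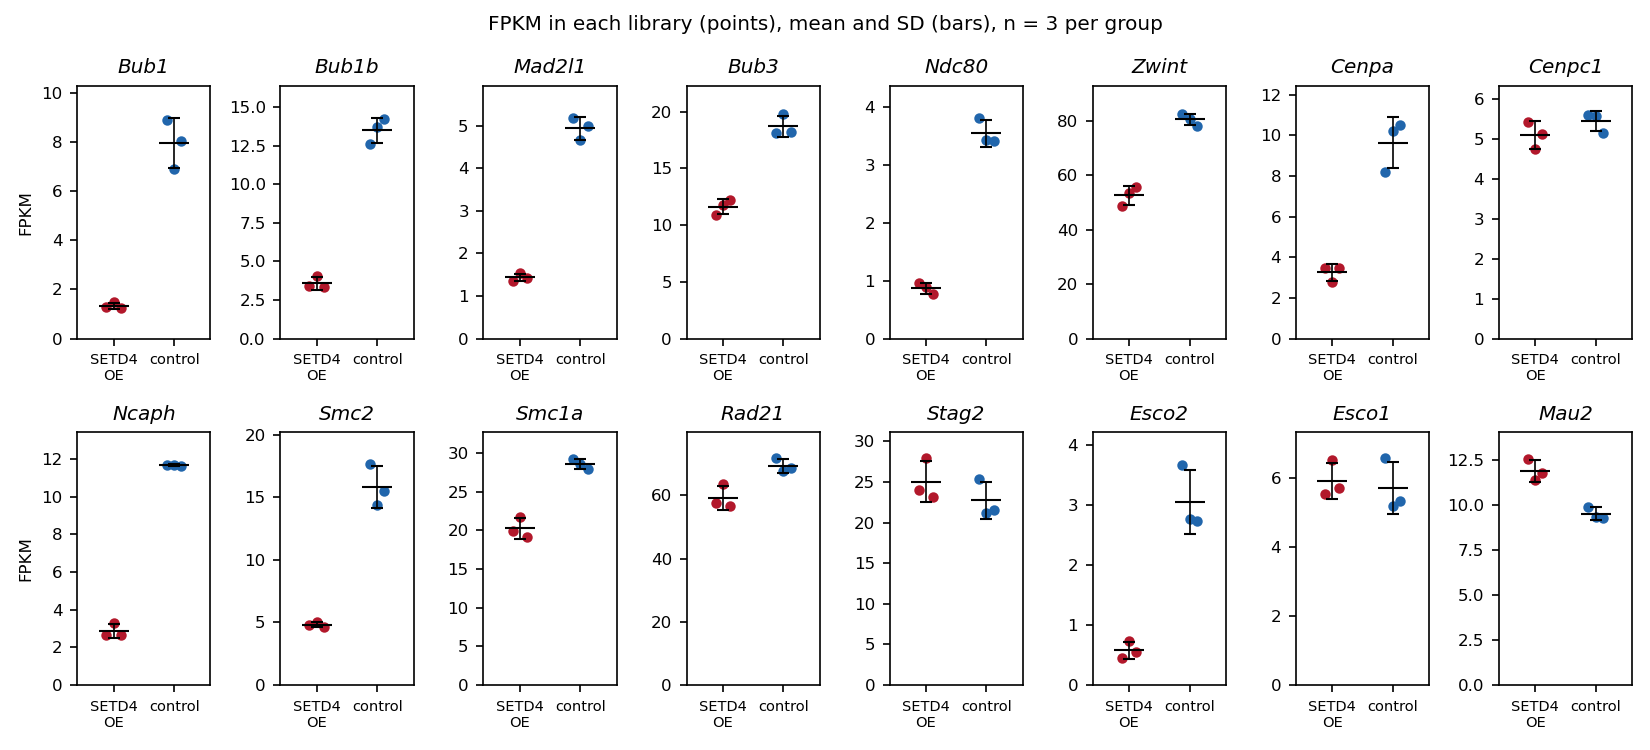
FPKM of 16 members in each library (points) with the mean and SD (bars), SETD4 OE left and control right, n = 3 each, on axes that start at 0. The groups are separate for Bub1, Bub1b, Mad2l1, Ndc80, Cenpa, Ncaph, Smc2 and Esco2 and overlap for Cenpc1, Stag2 and Esco1, and Mau2 is higher in SETD4 OE.

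All 11 genes of the outer kinetochore, the layer that binds microtubules, fell, and their median log2 fold change was -1.26, or -1.06 for the 8 at 1 FPKM or more in both groups. Ndc80, Knl1 and Ska1 averaged 0.872, 0.937 and 0.642 FPKM in SETD4 OE. These genes passed the filter through the control group, a selection that favours low shares. The 4 subunits of the Ndc80 complex, the rod that grips the microtubule, kept 24.5% for Ndc80, 31.7% for Nuf2, 25.6% for Spc24 and 33.8% for Spc25, as shares of the control mean. Ndc80 itself (chromosome 17, 71803095 to 71833852) had 0.956, 0.892 and 0.767 FPKM in SETD4 OE and 3.82, 3.43 and 3.41 FPKM in the controls. The Ska complex, which steadies that grip, was uneven. Ska3 had 1.59, 1.97 and 1.31 FPKM in SETD4 OE and 7.87, 7.84 and 7.34 FPKM in the controls (log2 fold change -1.73, SE 0.10, adjusted p = 1.248e-05). Ska1 retained 19.5% and Ska2 51.6% of the control mean. Knl1, the scaffold on which Bub1 and Bub3 dock, retained 25.8%, and its binding partner Zwint, the most abundant gene of this layer, had 48.6, 53.4 and 55.6 FPKM in SETD4 OE and 82.4, 80.7 and 78.1 FPKM in the controls. In the Mis12 complex, which joins the outer layer to the centromere, Nsl1 and Pmf1 are not matched by the name rule. They fell to 24.3% and 41.5% of the control means (log2 fold change -1.16 and -1.04). Nsl1 passed the filter through the control group, at 0.647 FPKM in SETD4 OE. Of the members, Mis12 retained 68.4% of control. Its partner Dsn1 had 5.67, 5.54 and 5.40 FPKM in SETD4 OE and 6.72, 6.05 and 8.47 FPKM in the controls, groups that were separate but close. The Dsn1 call was marginal (log2 fold change -0.29, SE 0.11, adjusted p = 0.0482). It was lost in 13 of 17 alternatives (adjusted p 0.0166 to 0.234 over all), among them without SETD4 OE 1 (0.0951), SETD4 OE 2 (0.0995), SETD4 OE 3 (0.113), control 1 (0.0621) or control 3 (0.0971).

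The 4 members of the corona, the outermost layer that captures microtubules in early mitosis, fell together. Spdl1, which encodes the dynein adaptor Spindly, had 0.366, 1.13 and 0.572 FPKM in SETD4 OE and 3.81, 3.48 and 4.09 FPKM in the controls (log2 fold change -1.53, SE 0.17, adjusted p = 2.180e-04). Its SETD4 OE values rest on 20 to 61 reads and lay below all controls. Spdl1 passed the filter through the control group, a selection that favours falls. Cenpe, a kinesin motor of the kinetochore, retained 30.0% of the control mean and Zwilch, a subunit of the dynein-recruiting RZZ complex, 34.8%. Of the RZZ genes that the name rule does not match, Zw10 kept 88.1% and was not called (limma adjusted p = 0.0999). Kntc1 kept 19.7%, but averaged 0.824 FPKM in SETD4 OE and passed the filter through the control group. Cenpf, a large coiled-coil protein of the corona, had 2.30, 2.28 and 2.14 FPKM in SETD4 OE and 6.35, 5.66 and 6.00 FPKM in the controls, the smallest change of the 4 (log2 fold change -1.11). Sgo1, the shugoshin that shields centromeric cohesin until anaphase, fell to 0.831, 1.03 and 0.835 FPKM in SETD4 OE, against 4.42, 4.01 and 3.56 FPKM in the controls (log2 fold change -1.40, SE 0.10, adjusted p = 2.629e-05).

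At the centromere, 14 of 16 tested genes of the constitutive network fell (median log2 fold change -0.95, or -0.82 for the 10 at 1 FPKM or more in both groups). Cenpa, the histone H3 variant that marks the centromere (chromosome 5, 30824121 to 30832174, plus strand), had 3.48, 2.78 and 3.49 FPKM in SETD4 OE and 8.18, 10.2 and 10.5 FPKM in the controls, a log2 fold change of -1.32 (SE 0.11, adjusted p = 6.454e-05). Cenpn, which recognises nucleosomes that hold Cenpa, had the largest change of the network on the log2(FPKM + 1) scale, with 1.27, 1.31 and 1.38 FPKM in SETD4 OE and 5.55, 5.06 and 5.02 FPKM in the controls (log2 fold change -1.42). By share of control Cenpi, Cenpu and Cenpw fell further than Cenpn, which kept 25.4%. However, Cenpi, Cenpu and Cenpw averaged only 0.581, 0.381 and 0.467 FPKM in SETD4 OE. They passed the filter through the control group, a selection that favours low shares. So did Cenpk, Cenpl and Cenpp, at 0.474, 0.819 and 0.612 FPKM in SETD4 OE. Cenpl, the partner of Cenpn, retained 39.3% of control. The subcomplex of Cenph, Cenpi, Cenpk and Cenpm kept 27.4%, 18.7%, 25.7% and 45% of the control means. In the subcomplex of Cenpo, Cenpp, Cenpq and Cenpu the shares were 80.1%, 33.5%, 59.7% and 21.5%, where Cenpo was under the expression threshold in both groups (0.690 ± 0.0854 FPKM in SETD4 OE and 0.862 ± 0.0854 FPKM in the controls). Among the histone-fold proteins, Cenpt, Cenpw, Cenps and Cenpx kept 66.1%, 23.4%, 34.8% and 61.4%. Cenps and Cenpx also serve in DNA crosslink repair.

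The 2 network genes that were not called were Cenpc1 and Cenpb. Cenpc1, the scaffold between Cenpa chromatin and the Mis12 complex, had 5.43, 4.74 and 5.12 FPKM in SETD4 OE and 5.61, 5.59 and 5.16 FPKM in the controls, so the groups overlapped (log2 fold change -0.08, SE 0.07, adjusted p = 0.326). Its sign turned to 0.04 with upper-quartile scaling. Cenpb, which binds a motif of satellite DNA, had 43.8, 37.3 and 47.2 FPKM in SETD4 OE and 43.0, 60.1 and 55.6 FPKM in the controls (log2 fold change -0.29, SE 0.14, adjusted p = 0.104). Control 1, the library with the high mitochondrial share, lay among the SETD4 OE values for Cenpb, and without it Cenpb passed (log2 fold change -0.43, adjusted p = 0.0114). With all 6 libraries it passed with limma-voom (adjusted p = 0.0407). Cenpb also lies wholly inside the span of Spef1 on the same strand, so its value may hold reads of that gene.

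Genes that place new Cenpa at centromeres fell. Oip5, a subunit of the Mis18 complex that prepares the centromere for loading, had 1.85, 1.45 and 1.65 FPKM in SETD4 OE and 5.16, 4.86 and 4.67 FPKM in the controls (log2 fold change -1.15, SE 0.08). Mis18a, which belongs to the same complex, retained 42.3% of the control mean. Hjurp, the chaperone that carries Cenpa, changed least, with 11.6, 12.2 and 10.9 FPKM in SETD4 OE and 19.5, 18.5 and 19.4 FPKM in the controls (log2 fold change -0.68, SE 0.06, adjusted p = 6.819e-05).

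All 8 condensin genes fell (median log2 fold change -1.09). Of the ATPase subunits shared by both condensins, Smc2 had 4.76, 5.07 and 4.64 FPKM in SETD4 OE and 17.7, 14.4 and 15.5 FPKM in the controls, or 30.4% of the control mean. Its partner Smc4 retained 62.3%. Among subunits specific to condensin I, Ncaph, which closes the ring (chromosome 2, 126945729 to 126975874), had 2.66, 3.30 and 2.65 FPKM in SETD4 OE and 11.7, 11.7 and 11.6 FPKM in the controls (log2 fold change -1.72, SE 0.08, adjusted p = 5.524e-06). Ncapg and Ncapd2 kept 22.7% and 49.3% of control. In condensin II, which is nuclear throughout the cycle, Ncaph2 retained 67.4% and Ncapg2 31.9%. Ncapd3 had the smallest change of the 8 on the log2(FPKM + 1) scale and a share of control, 67.3%, close to that of Ncaph2, with 3.84, 3.82 and 3.37 FPKM in SETD4 OE and 5.91, 5.12 and 5.35 FPKM in the controls (log2 fold change -0.47, SE 0.08, adjusted p = 0.00150).

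Of 5 tested cohesin core genes 2 fell and 0 rose, and of 7 regulators 3 fell and 1 rose, with medians of -0.17 and -0.21. Together 5 of 12 fell, where 33.9% of all tested genes fell, so the share was near the background. Smc1a, an ATPase arm of the ring, fell to 19.9, 21.8 and 19.2 FPKM in SETD4 OE, against 29.2, 28.6 and 28.0 FPKM in the controls (log2 fold change -0.48, SE 0.06, adjusted p = 4.806e-04). Rad21, the subunit that closes the ring, had 57.5, 63.6 and 56.7 FPKM in SETD4 OE and 71.8, 67.6 and 68.6 FPKM in the controls, at 85.5% of the control mean (log2 fold change -0.22, SE 0.06, adjusted p = 0.0185). The Rad21 call was lost in 10 of 17 alternatives (adjusted p 0.00721 to 0.767 over all), among them the replicate block (0.0626) and the fits without SETD4 OE 1 (0.0676), SETD4 OE 3 (0.0660) or control 3 (0.0535). Smc3, the other ATPase arm, had 21.2, 22.5 and 19.7 FPKM in SETD4 OE and 26.1, 21.3 and 24.1 FPKM in the controls and was not called (log2 fold change -0.17, SE 0.09, adjusted p = 0.136), although it passed without control 2 (0.0372). The meiotic arm Smc1b rested on 2 to 7 reads per SETD4 OE library and 9 to 11 per control library and was not tested.

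The alternative SA subunits of cohesin, Stag1 and Stag2, were not called. Stag1 had 6.44, 7.05 and 6.07 FPKM in SETD4 OE and 7.43, 6.38 and 7.03 FPKM in the controls (log2 fold change -0.08, SE 0.08, adjusted p = 0.401). Its sign turned to 0.05 with upper-quartile scaling. Stag2 had 24.0, 27.9 and 23.2 FPKM in SETD4 OE and 25.4, 21.2 and 21.6 FPKM in the controls (log2 fold change 0.13, SE 0.10, adjusted p = 0.268). The groups overlapped for both, and control 1 was the highest control for both.

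Among the regulators, the acetyltransferases of Smc3 differed in their calls. Esco2, which acts in S phase, fell to 0.448, 0.726 and 0.551 FPKM in SETD4 OE, against 3.66, 2.76 and 2.73 FPKM in the controls, or 18.8% of the control mean (log2 fold change -1.36, SE 0.12, adjusted p = 9.645e-05). Esco1, which acts throughout the cycle, had 5.54, 6.52 and 5.70 FPKM in SETD4 OE and 6.57, 5.20 and 5.34 FPKM in the controls and was not called (log2 fold change 0.05, SE 0.10, adjusted p = 0.687). Mau2, which with Nipbl loads cohesin on DNA (chromosome 8, 70468773 to 70495384, minus strand), was the 1 member that rose, with 12.6, 11.4 and 11.8 FPKM in SETD4 OE and 9.93, 9.36 and 9.28 FPKM in the controls. Its log2 fold change of 0.30 (SE 0.06, adjusted p = 0.00398) stayed past the threshold in all 17 alternatives, with 0.26 to 0.43. Nipbl had 16.2, 17.6 and 15.3 FPKM in SETD4 OE and 16.6, 12.5 and 14.3 FPKM in the controls and was not called (log2 fold change 0.17, SE 0.10, adjusted p = 0.194). Without control 1, its highest control, Nipbl passed (log2 fold change 0.27, adjusted p = 0.0320).

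The proteins that release or stabilise cohesin on DNA had small log2 fold changes. Pds5b fell (log2 fold change -0.31, adjusted p = 0.0132), a call lost without SETD4 OE 1 (0.0506) and in 4 of the scalings, and ranging from 0.00305 to 0.149 over all alternatives. Pds5a had 5.84, 6.21 and 5.91 FPKM in SETD4 OE and 7.92, 6.41 and 6.96 FPKM in the controls, which did not overlap, and narrowly missed the threshold (log2 fold change -0.21, SE 0.08, adjusted p = 0.0532). It passed without control 2 (0.0250) and with limma-voom (0.0195). Wapl, the release factor, had 14.7, 17.1 and 14.7 FPKM in SETD4 OE and 19.2, 17.3 and 17.9 FPKM in the controls (log2 fold change -0.22, adjusted p = 0.0426). The Wapl call was lost in 13 of 17 alternatives (adjusted p 0.0120 to 0.491 over all), including those without SETD4 OE 1 (0.134), SETD4 OE 3 (0.126), control 1 (0.103), control 2 (0.0523) and control 3 (0.0923).

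In the SMC5/6 complex, which acts in repair and replication, Smc6 fell to 4.98, 5.06 and 4.38 FPKM in SETD4 OE, against 7.46, 6.43 and 6.09 FPKM in the controls (log2 fold change -0.40, SE 0.09, adjusted p = 0.00607), a call lost with upper-quartile scaling (0.0517). Smc5 had 10.4, 13.4 and 10.6 FPKM in SETD4 OE and 14.1, 11.8 and 12.3 FPKM in the controls and was not called (log2 fold change -0.14, adjusted p = 0.282), but passed without SETD4 OE 2 (0.0465). The name rule also took in Cenpj and Cenpv. Cenpj, a centriole protein, had 2.53, 2.30 and 1.88 FPKM in SETD4 OE and 2.34, 2.02 and 2.03 FPKM in the controls and was not called (log2 fold change 0.05, adjusted p = 0.712). Cenpv had 9.37, 8.17 and 10.7 FPKM in SETD4 OE and 14.4, 16.5 and 15.0 FPKM in the controls, a fall of 0.65 on the log2 scale.

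Ratios within 7 pairs of related subunits were compared across the groups on the log2((FPKM + 1)/(FPKM + 1)) scale with an exact two-sided permutation test. With 3 libraries against 3 the smallest p is 0.10, and every pair reached it (0.10 after adjustment over the 7 pairs), so none can pass 0.05. The groups did not overlap for any pair, but the sizes differed. Such separation was common, since SETD4 OE lay wholly below the controls for 36.9% of single tested genes and above for 29.1%. Ratios of other gene pairs were not compared. The Esco2/Esco1 ratio of FPKM was 0.0808, 0.111 and 0.0967 in SETD4 OE and 0.557, 0.531 and 0.512 in the controls, a log2 difference of -1.41 with the pseudocount of 1 FPKM and -2.48 without a pseudocount. The Ncaph/Ncaph2 ratio, between the closing subunits of condensin I and II, was 0.140, 0.187 and 0.133 in SETD4 OE and 0.459, 0.380 and 0.422 in the controls (-1.17 with and -1.47 without the pseudocount). The other condensin pairs differed by -0.50 with and -0.45 without it for Ncapd2/Ncapd3, and by -0.23 with and -0.51 without it for Ncapg/Ncapg2. Stag1/Stag2 differed by -0.21 with and -0.23 without it, and Pds5a/Pds5b by 0.11 with and 0.10 without it. The Bub1b/Bub1 ratio was 2.64, 2.73 and 2.64 in SETD4 OE and 1.42, 1.99 and 1.76 in the controls, a difference of 0.27 with and 0.65 without the pseudocount. Without control 1 these were 0.15 and 0.52.

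**Figure D4:**
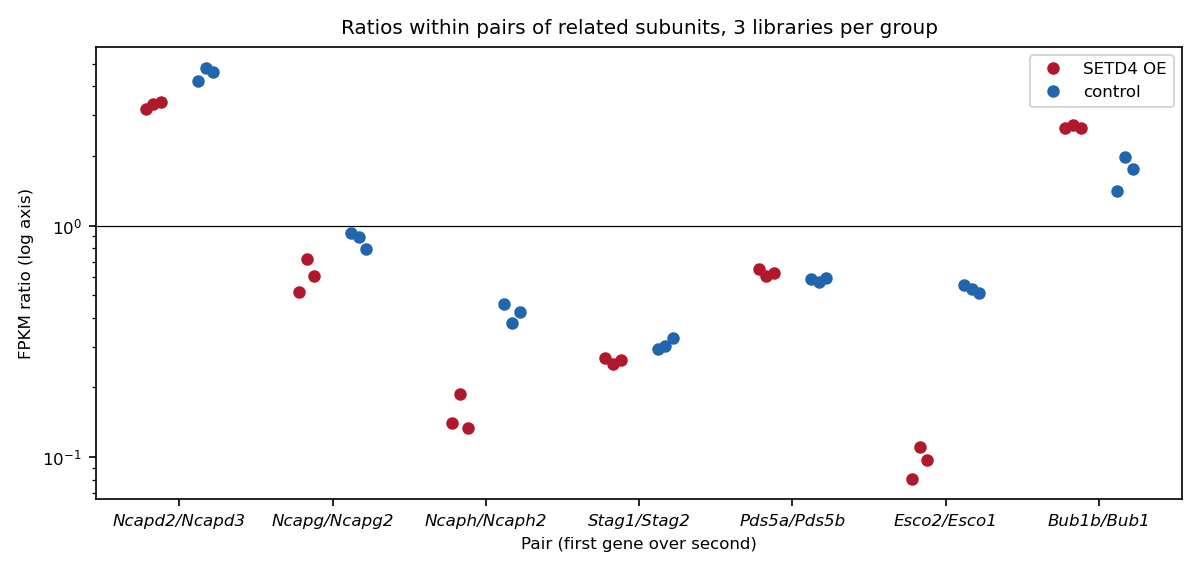
FPKM ratio of the first over the second gene of each pair in each library on a log axis, SETD4 OE left and control right, 3 libraries each. The widest gaps are those of Esco2/Esco1 and Ncaph/Ncaph2, and the narrowest is that of Pds5a/Pds5b.

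Genes of the same machinery that the name rule does not match were counted from fixed lists. Beside these counts, 33.9% of all tested genes fell and 26.0% rose, with a median log2 fold change of -0.06. All 5 genes of the passenger complex and its recruiter, which correct faulty attachments, fell (median log2 fold change -1.56). Aurkb, its kinase, averaged 1.95 ± 0.178 FPKM in SETD4 OE and 13.3 ± 1.08 FPKM in the controls (SD, n = 3 each), and its partner Incenp had a log2 fold change of -1.59 at 28.4% of the control mean. Haspin, the histone kinase that recruits the complex, had the lowest share of control in this list, 13.1%. However, it averaged 0.364 FPKM in SETD4 OE (10 to 22 reads) and 2.78 FPKM in the controls. Haspin thus passed the filter through the control group, a selection that favours low shares. Of 11 tested other kinetochore and checkpoint genes 9 fell and 0 rose (median -1.04), among them the mitotic kinase Plk1 (-1.97) and the ATPase Trip13, which recycles Mad2 (-1.62). Trip13, Nsl1, Kntc1 and Sgo2a averaged 0.72, 0.647, 0.824 and 0.458 FPKM in SETD4 OE. These genes passed the filter through the control group, a selection that favours falls, and the list was not recounted without them. Of 18 genes of the anaphase-promoting complex and chromosome separation 10 fell, 0 rose and 8 were not called (median -0.21). Only the activator Cdc20 (-1.66) and separase, Espl1 (-1.24), fell by more than 1 on the log2 scale. The securin gene Pttg1 was among those not called (0.08, adjusted p = 0.285). Of 9 tested partners of cohesin and SMC5/6, 6 fell and 1 rose (median -0.26). Cdca5, which encodes sororin, the S-phase protector of cohesion, had 1.43, 1.72 and 1.24 FPKM in SETD4 OE and 7.54, 8.46 and 7.97 FPKM in the controls (log2 fold change -1.87). The gene that rose was Hdac8, the deacetylase of Smc3, with 5.17, 5.25 and 5.61 FPKM in SETD4 OE and 3.44, 3.04 and 3.31 FPKM in the controls (log2 fold change 0.57, adjusted p = 2.970e-04). Of 2 tested meiotic cohesin genes Rec8 rose (0.47), at 2.24 ± 0.212 FPKM in SETD4 OE and 1.34 ± 0.230 FPKM in the controls, and Stag3 was not called (0.14, adjusted p = 0.244).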

How the data were processed

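RNA-seq of 6 libraries (SETD4 OE and control, 3 each) was used. The submitters' processing notes name HISAT2 2.0.5 and build mm39. For counter, annotation and strand setting nothing was given in the sources used here. Values are FPKM with gene lengths, as deposited per the file headers. Multiplied by length, 100% of them were whole multiples of the value of 1 read (tolerance 0.05), which yields 14924273 to 18078717 recovered reads per library. The lowest library of the median tested member held 241 reads, and the lowest of all 16.

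Values were compared as log2(FPKM + 1) with limma 3.58.1 in R 4.3.3 (mean-variance trend, two-sided, mean of at least 1 FPKM), which kept 12994 of 55802 genes. Fold changes on this scale understate the change of low genes. On simulated reads for this comparison (13010 genes tested), calls included 102 of 102 genes with a 3-fold change, 87 of 98 with a 1.5-fold change, and 7 without any. The simulation gave all genes the same small dispersion, had no library effects, and changed only 200 genes, none of them near the filter. In the data 60.0% of the tested genes were called, so these counts are not error rates of the real comparison. Within-group pairs of libraries differed beyond sampling noise (chi-square per degree of freedom 3.89 to 16.3), and all were counted as separate replicates. No pairing by replicate number was seen, though the labels do not say whether equal numbers share animals or preparations.

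The members and lists were chosen with earlier results of these data known. Given in full are, per role, the members with the largest and smallest change and those not called or higher, and of each other list up to 2 genes with the largest change, all on the log2(FPKM + 1) scale, which ranks low genes lower than shares of control do. Genes outside this rule, such as Haspin, were chosen after their values were seen. The 12 members whose spans overlap another expressed gene may hold its reads, since strand was not given. These are Bub3, Cenpb, Cenph, Cenpk, Cenpo, Cenpp, Cenpq, Mis12, Ncapg, Ncaph2, Oip5 and Ska3. Alternatives were other filters, a pseudocount of 0.1, a replicate block, other scalings, limma-voom on the recovered reads and leaving out each library. Scaling to equal sums of FPKM and pair ratios without a pseudocount were added after the data were seen. The values of 1 member are not reported here, though it is included in the counts.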

Additional observations from a re-analysis of the deposited data

How the results depend on the processing

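The number of tested members lower in SETD4 OE was 55 and ran from 49 (upper-quartile scaling) to 57 (limma-voom) with 66 members tested. It was 53 without a filter, and 25 of 35 with a mean of at least 5 FPKM. With that last filter 3375 of all 8057 tested genes were lower and 1881 higher. Of the 55, 49 were called in every alternative in which they were tested. The other 6 were Dsn1, Mad1l1, Pds5b, Rad21, Smc6 and Wapl. Without 1 library in turn, 51 to 56 members were lower and 1 to 2 higher, the second being Nipbl without control replicate 1. In these fits 3788 to 4524 of all tested genes were lower and 2895 to 3316 higher. Values near 0 changed sign. Smc3 was at 0.01 with quantile normalization, Cenpj at -0.02 with it, and without 1 library Cenpj ranged from -0.02 to 0.13 and Esco1 from -0.01 to 0.14. With upper-quartile scaling, equal sums of FPKM, and removal of mitochondrial and the 10 most abundant genes, Stag1 was at 0.05, 0.04 and 0.006 and Cenpc1 at 0.04, 0.03 and 0.00065. The median over tested members ranged from -1.32 (limma-voom) to -0.49 (mean of at least 5 FPKM).

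No pairing by the replicate numbers in the titles was seen. Same-numbered libraries had deviations correlated at -0.066, -0.229 and 0.077 across genes, and SETD4 OE 2 correlated best with control 1 (0.3). This cannot exclude shared animals or preparations, which the labels do not give. With the replicate block 6941 genes in all changed, 52 members were lower and 1 higher, and the calls of Dsn1, Rad21 and Wapl were lost. The Ncapg/Ncapg2, Bub1b/Bub1 and Esco2/Esco1 differences grew to -0.46, 0.59 and -2.29 with a pseudocount of 0.1. Cenph, Cenpi, Cenpk, Cenpp, Cenps, Cenpu, Cenpw, Oip5, Ska1, Spdl1 and Esco2 rest on fewer than 50 reads in at least 1 SETD4 OE library, which limits the precision of their folds.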
